A study of Mus musculus with 12 samples.

Results

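The 35 genes described here encode the integrin subunits and laminin chains measured in mouse embryonic fibroblasts in the first days of reprogramming, 17 integrin alpha subunits, 8 integrin beta subunits and 10 laminin chains. They were chosen by gene symbol alone, as every gene named as an integrin alpha or beta subunit or a laminin alpha, beta or gamma chain, among 22180 genes with a probe set of their own. A probe set is a group of array probes summarized as 1 value, and only probe sets that name 1 gene were used. The 35 genes had 36 probe sets, since Itgav had 2, and each gene is represented by its probe set with the highest mean.

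All samples were mouse embryonic fibroblasts of E13.5 embryos with the genotype Col1a1::tetOP-OKSM ; R26-M2rtTA and a strain label that joins C57Bl/6 and 129X1/SvJ. Doxycycline switches on Oct4, Klf4, Sox2 and c-Myc (OKSM) in such cells, in every group alike. The 4 groups of 3 arrays were a Chaf1a hairpin (knockdown, KD) at day 6 of doxycycline, a Renilla luciferase hairpin (control) at day 6, KD at day 3 and control at day 3. The hairpins came by retrovirus and the cells were kept in ESC medium with 15% serum and 1000 U/ml LIF, per the labels' protocols. Whole cultures were measured and the labels name no sorting step. Nothing in the labels tells if replicate arrays stand for different embryos or dishes, and the p-values therefore reflect only the spread among these samples, which may be technical. All values are log2 of the deposited intensity, so a difference of 1 corresponds to a 2-fold change. The median intensity of an array lay between 39.5 and 43.3.

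Integrins are receptors made of 1 alpha and 1 beta subunit that hold a cell to the matrix around it. The alpha subunit largely sets the ligand: collagens, laminins, or proteins with the short RGD motif such as fibronectin and vitronectin. Laminins are cross-shaped trimers of an alpha, a beta and a gamma chain, and they form the sheet of the basement membrane on which epithelial, endothelial, muscle and embryonic cells rest. Fibroblasts attach mainly through beta 1 and alpha v integrins, and early reprogramming to pluripotency passes through a loss of fibroblast and a gain of epithelial features.

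The target of the hairpin was read first. Chaf1a, the large subunit of the histone chaperone CAF-1, read 7.04, 7.16 and 7.11 in KD day 6 arrays, 7.06, 7.30 and 7.31 in control day 6 arrays, 7.35, 7.18 and 7.19 in KD day 3 arrays and 7.44, 7.72 and 7.42 in control day 3 arrays. KD minus control was −0.12 at day 6 (limma adjusted p = 0.999) and −0.29 at day 3 (limma adjusted p = 0.726), so the KD means were lower without passing the test. Chaf1b, the middle subunit, differed by −0.20 at day 6 (adjusted p = 0.999) and −0.43 at day 3 (adjusted p = 0.697). All 10 fibroblast markers passed the low-value filter, but so did all 10 epithelial and all 10 pluripotency markers, so that filter does not tell the cell type. The fibroblast markers averaged between 4.44 (Fap) and 13.32 (Vim) over the arrays, with Col1a1 at 10.74, Col1a2 at 11.39 and Thy1 at 9.74. Their summed intensity was 16865 to 18810 in KD day 6 arrays, 17681 to 19452 in control day 6 arrays, 17002 to 17773 in KD day 3 arrays and 17042 to 17838 in control day 3 arrays. The sum is of linear intensities, so the strongest markers, such as Vim, weigh most. From day 3 to day 6, 1 of the 10 rose and 0 fell past the limma threshold with each hairpin. Over all genes 7.46% rose and 10.5% fell in KD cells, and 6.99% rose and 10.6% fell in control cells.

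All 35 genes passed the low-value filter, which asks for the 30th percentile of the array in at least 3 arrays. The intensities of 25 genes lay above the array's median in all 12 arrays. They include Itgb1 (the beta subunit shared by most matrix receptors), Itgav, Itgb5, Lama4, Lamb1 and Lamc1. That median is over all 41345 probe sets, and 13696 of the 22180 genes reached it in at least 3 arrays. The share of all genes above it in all 12 arrays was not counted. By mean intensity Lama3, Itgal and Itga2b, all among the 25, stood at percentiles 46.19, 45.91 and 45.69 of all genes. Another 6 genes, Itga2, Itgam, Itgb2, Itgb7, Lamb3 and Lamc3, were above the array's median in some arrays. The last 4, Itgad, Itgae, Itgax and Itgb6, were above it in none, and Itgb6, the epithelial partner of alpha v, reached the 30th percentile in 4 arrays. Intensities of different probe sets depend on the probes, so no order between genes is drawn from them.

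**Figure D1:**
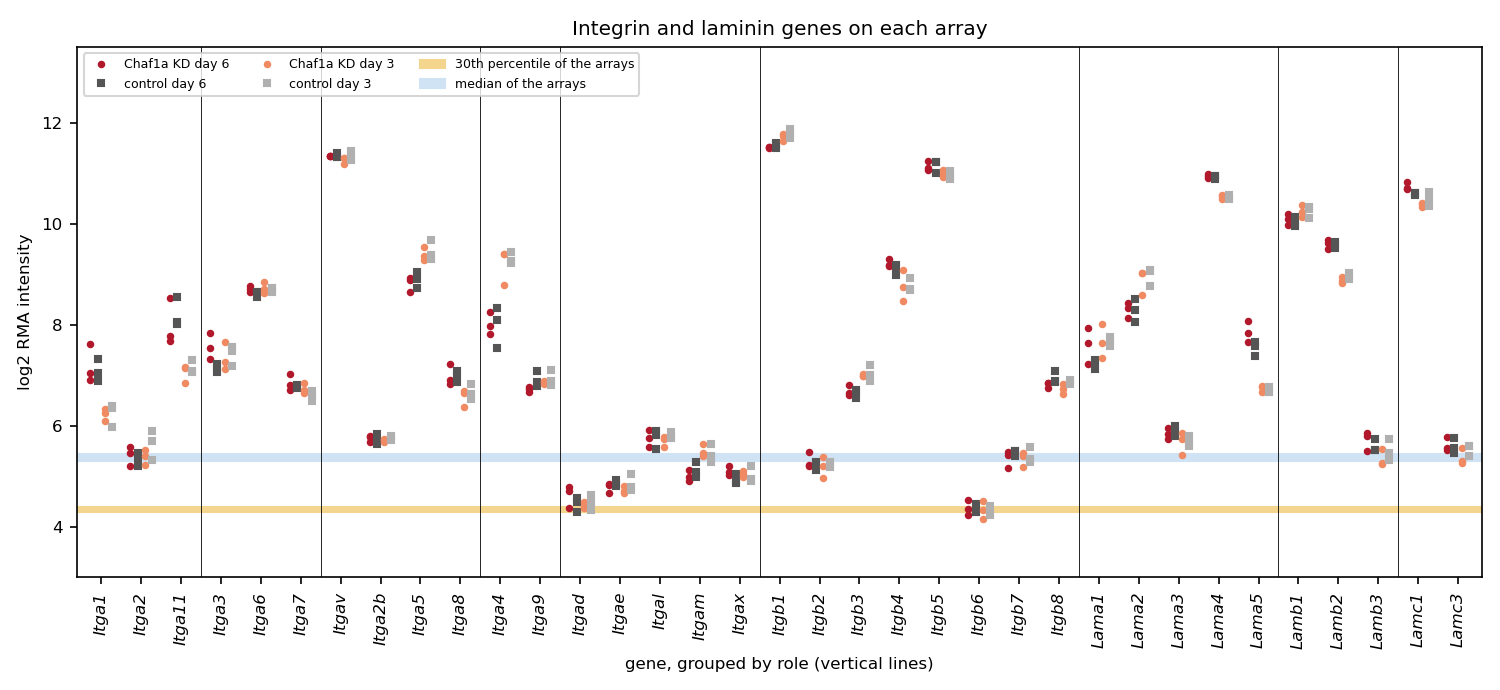
Log2 RMA intensity (y axis) of each integrin and laminin gene (x axis, grouped by role) on each of the 12 arrays, with 1 point per array, KD as circles and control as squares, day 6 dark and day 3 light. Bands mark the range over arrays of the 30th percentile and of the median, both over all probe sets. On all 12 arrays 25 of the 35 genes lie above the array median, while Itgad, Itgae, Itgax and Itgb6 lie below it.

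The largest differences were between days. In KD cells 14 of the 35 genes changed between day 3 and day 6, with 8 higher and 6 lower at day 6, against 17.9% of all 17860 genes tested (7.46% higher and 10.5% lower). In control cells 10 of 35 changed, 5 higher and 5 lower, against 17.6% of all genes (6.99% higher and 10.6% lower). The 10 genes called in control cells were all called in KD cells with the same sign. They are Lama5, Lamb2, Lama4, Itga11 and Itga1, which rose, and Itga4, Lama2, Itga5, Itgb3 and Itgb1, which fell. The matching overlap over all genes was not counted, so it is not read as a trait of these genes. Among the 13696 genes that reached the array median in at least 3 arrays, 25.1% were called in KD and 24.5% in control cells, against 14 and 11 of the 30 integrin and laminin genes left. These are whole cultures, so fewer cells of a type and less RNA per cell cannot be told apart. The median difference over the 35 genes was 0.09 in KD cells and 0.01 in control cells, beside 0.01 in each over all genes. Of the 35 differences 25 were positive and 10 negative in KD cells, and 18 were positive and 17 negative in control cells. Day 6 arrays lay wholly above day 3 arrays for 10 genes and wholly below for 7 in KD cells (15.4% and 18.9% of all genes), and for 8 and 7 in control cells (16% and 19.3% of all genes).

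**Figure D2:**
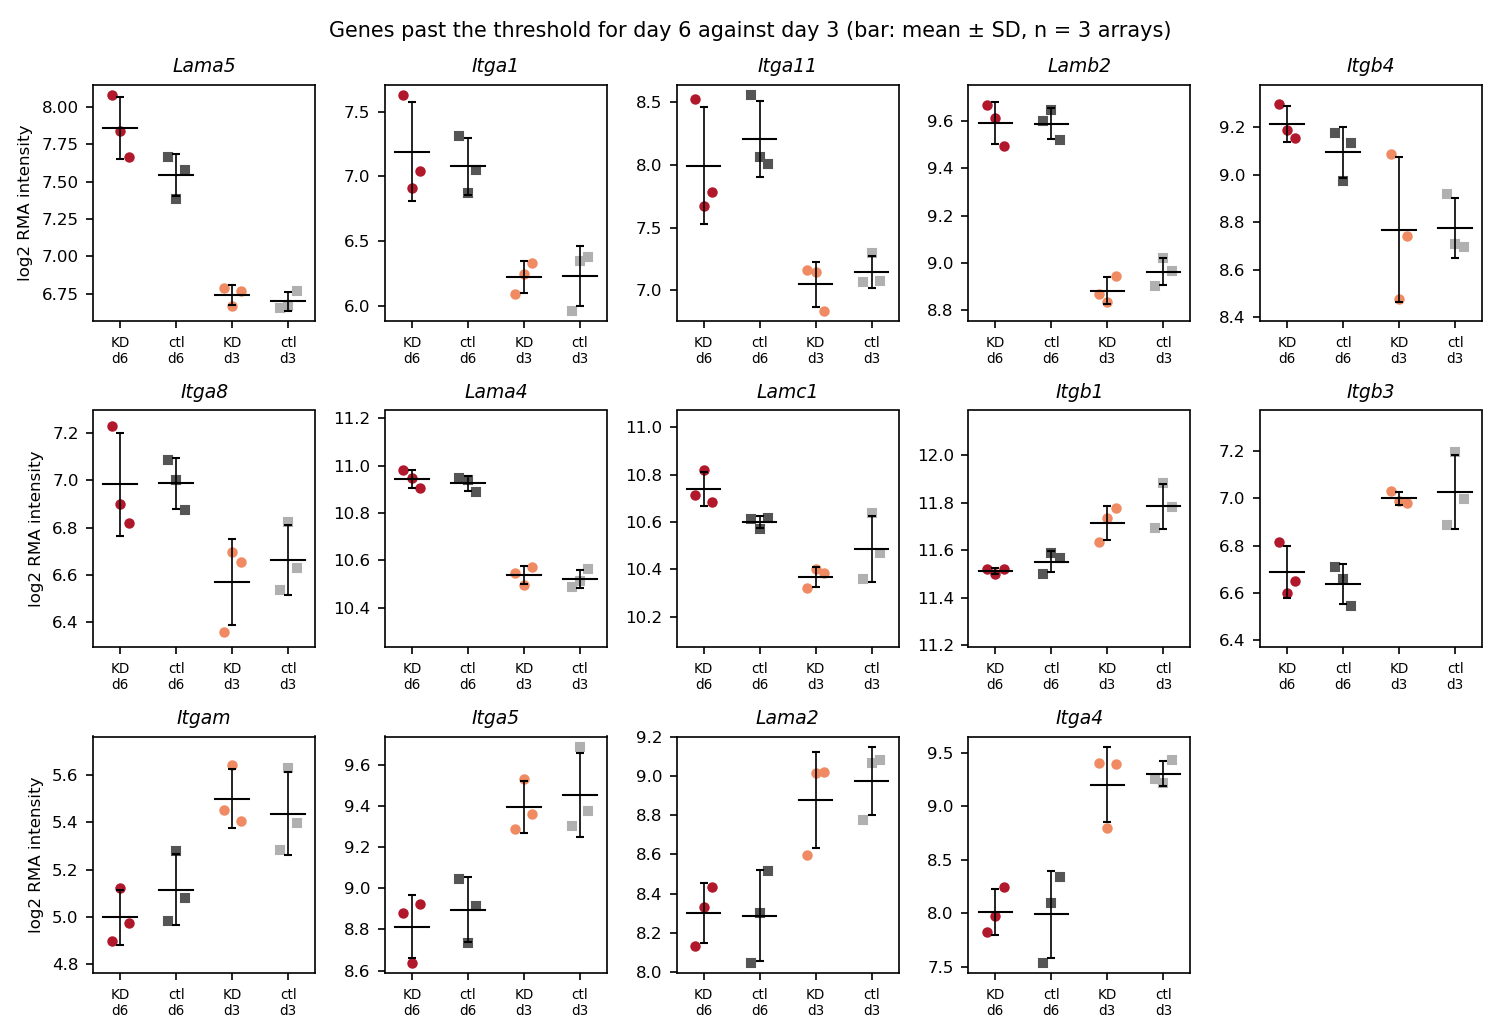
Log2 RMA intensity (y axis, own scale in each panel) of the 14 genes past the threshold for day 6 against day 3 in KD or control cells, ordered by the difference in KD cells, with 1 point per array and bars for mean ± SD (n = 3). Groups run KD day 6, control day 6, KD day 3 and control day 3 along the x axis, and the day 6 points of Lama5, Lamb2 and Lama4 sit above all their day 3 points while those of Itga4, Itga5 and Lama2 sit below.

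Among the laminin alpha chains, which carry the part of the trimer that receptors bind, Lama5 and Lama4 rose and Lama2 fell. Lama5, a chain of most epithelial and many endothelial basement membranes that is also laid down by embryonic stem cells, read 8.08, 7.84 and 7.66 in KD day 6 arrays, 7.67, 7.39 and 7.58 in control day 6 arrays, 6.79, 6.67 and 6.77 in KD day 3 arrays and 6.66, 6.67 and 6.77 in control day 3 arrays. Every day 6 array was above every day 3 array. Day 6 minus day 3 was 1.12 ± 0.10 (SE) in KD cells, 2.17-fold (limma adjusted p = 2.02e-05), and 0.84 ± 0.10 in control cells, 1.80-fold (adjusted p = 1.80e-04). Lama4, the alpha chain of vessel and mesenchymal laminins, read 10.98, 10.95 and 10.91 in KD day 6 arrays, 10.95, 10.94 and 10.89 in control day 6 arrays, 10.55, 10.50 and 10.57 in KD day 3 arrays and 10.49, 10.51 and 10.56 in control day 3 arrays. The 3 arrays of each group lay close together and far from the other day, and the difference was 0.41 ± 0.05 in KD cells (adjusted p = 3.21e-04) and 0.40 ± 0.05 in control cells (adjusted p = 3.73e-04). Both genes were called under all 16 alternatives for each hairpin.

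The sequence before the start of Lama5 is shown because Lama5 had the largest rise in KD cells, and that of Itga4 because it had the largest fall. Both come from the 250 bases before the start that RefSeq's promoter table gives (build GRCm38.p6). The last 45 bases of the Lama5 window lie inside the gene's span in RefSeq's gene table and are left out, so 205 are shown. The sequences are printed 5′ to 3′ on the gene's strand, with GC boxes in capitals, that is GGGCGG or its reverse complement, the motif of Sp-family factors.
Lama5, chr2:180225905-180226109, minus strand: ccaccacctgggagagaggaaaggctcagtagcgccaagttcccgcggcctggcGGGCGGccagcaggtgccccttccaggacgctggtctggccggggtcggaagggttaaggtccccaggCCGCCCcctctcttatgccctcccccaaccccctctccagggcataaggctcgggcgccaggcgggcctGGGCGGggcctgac
Itga4, chr2:79255176-79255425, plus strand: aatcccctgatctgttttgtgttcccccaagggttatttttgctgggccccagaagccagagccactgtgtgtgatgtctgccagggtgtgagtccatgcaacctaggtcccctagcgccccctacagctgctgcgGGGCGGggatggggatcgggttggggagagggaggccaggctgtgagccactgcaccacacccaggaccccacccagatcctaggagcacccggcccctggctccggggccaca
The whole Lama5 window held 4 GC boxes, of which 3 are in the part shown, 19 CpG dinucleotides and 72.4% G and C. The Itga4 window held 1 GC box, 6 CpG dinucleotides and 64% G and C. Over the 32851 windows of the table, 32.7% held a GC box, and the medians were 6 CpG dinucleotides and 52.4% G and C. Searched on both strands, neither window held the AP-1 motif TGANTCA (6.75% of all windows), the TATA box TATAAA (12.4%) or the octamer ATGCAAAT (1.6%). Of the 35 genes 22 had a window, of which 8 held a GC box, 1 the AP-1 motif and 0 the TATA box. A match is a description of the letters, and a missing match says only that these letters are not in this window.

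Lama2, the alpha chain of muscle and nerve laminins, went the other way. Lama2 read 8.13, 8.33 and 8.43 in KD day 6 arrays, 8.05, 8.30 and 8.52 in control day 6 arrays, 8.60, 9.02 and 9.02 in KD day 3 arrays and 8.77, 9.07 and 9.08 in control day 3 arrays. The day 6 arrays were below the day 3 arrays for both hairpins, by 0.58 in KD cells (log2 difference −0.58 ± 0.14, adjusted p = 0.0145) and by 0.69 in control cells (−0.69 ± 0.14, adjusted p = 0.00604). The KD call was lost without KD day 6 replicate 1 (−0.50), KD day 3 replicate 2 (−0.51) or KD day 3 replicate 3 (−0.51). Lama1, the alpha chain of the first embryonic basement membrane, and Lama3, the chain of skin laminin, did not pass. Lama1 differed by −0.06 in KD cells (adjusted p = 0.850) and by −0.45 in control cells (adjusted p = 0.103, or 0.0133 with the replicate block), and Lama3 by 0.18 (adjusted p = 0.285) and 0.21 (adjusted p = 0.209). Muscle markers, of which 5 of 6 passed the filter, had a summed intensity of 403 to 429 in KD day 6 arrays, 396 to 440 in control day 6 arrays, 427 to 500 in KD day 3 arrays and 430 to 481 in control day 3 arrays. Of these 5, 0 were called between days with either hairpin. The 2 glia markers measured had sums of 114 to 119 in KD and 103 to 118 in control arrays at day 6. At day 3 the glia sums were 92 to 99 in KD and 90 to 99 in control arrays. With each hairpin 1 of the 2 glia markers rose. Of all genes, 17.9% were called in KD cells (7.46% higher) and 17.6% in control cells (6.99% higher). The part of muscle or glial cells in the Lama2 result was not tested.

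Of the laminin beta chains Lamb2 rose and Lamb1 did not pass. Lamb2, the beta chain of the neuromuscular junction and kidney filter, read 9.67, 9.61 and 9.49 in KD day 6 arrays, 9.60, 9.65 and 9.52 in control day 6 arrays, 8.87, 8.84 and 8.94 in KD day 3 arrays and 8.90, 9.02 and 8.97 in control day 3 arrays. All 6 day 6 arrays lay above all 6 day 3 arrays. The difference was 0.71 ± 0.07 (1.63-fold, adjusted p = 2.58e-05) in KD cells and 0.62 ± 0.07 (1.54-fold, adjusted p = 7.23e-05) in control cells, called under all 16 alternatives for each. Lamb1, the beta chain of early embryonic laminin, differed by −0.16 in KD cells (adjusted p = 0.242) and −0.21 in control cells (adjusted p = 0.115). Lamb3, the beta chain of skin laminin, differed by 0.37 in KD cells (adjusted p = 0.0633, or 0.0404 with the replicate block) and 0.09 in control cells (adjusted p = 0.703).

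Lamc1, the gamma chain shared by most laminins, rose in KD cells. Its intensities were 10.71, 10.82 and 10.68 in KD day 6 arrays, 10.61, 10.57 and 10.62 in control day 6 arrays, 10.32, 10.40 and 10.39 in KD day 3 arrays and 10.36, 10.64 and 10.47 in control day 3 arrays. KD day 6 arrays lay above all other arrays, and control day 6 arrays overlapped those of control day 3. Day 6 minus day 3 was 0.37 ± 0.07 in KD cells (adjusted p = 0.00386) and 0.11 ± 0.07 in control cells (adjusted p = 0.334). The difference between those changes was 0.26 (95% interval 0.04 to 0.48) and did not pass over all genes (limma adjusted p = 0.972), so a change in KD cells alone is not shown. Lamc3 differed by 0.24 in KD cells (adjusted p = 0.136) and by 0.05 in control cells (adjusted p = 0.787). Counted together, 4 laminin chains rose and 1 fell in KD cells with a median of 0.31 over all 10, and 3 rose and 1 fell in control cells with a median of 0.10, beside a median of 0.01 over all genes. Of all genes, 7.46% rose and 10.5% fell in KD cells, and 6.99% rose and 10.6% fell in control cells.

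Markers of epithelial and endothelial cells, which use these laminins, were compared between the same days, and their part in the laminin changes was not tested. Between these days 7.46% of all genes rose and 10.5% fell in KD cells, and 6.99% rose and 10.6% fell in control cells. Of 10 epithelial markers, all past the filter, 6 rose and 1 fell in KD cells, and 2 rose and 1 fell in control cells. They had a summed intensity of 1347 to 1471 in KD day 6 arrays, 1072 to 1094 in control day 6 arrays, 1150 to 1302 in KD day 3 arrays and 1207 to 1338 in control day 3 arrays. Cdh1 (E-cadherin) rose by 1.99 in KD cells (adjusted p = 1.44e-06) and 0.96 in control cells (adjusted p = 3.23e-04), while Krt19 fell by 0.94 (adjusted p = 1.41e-05) and by 0.99 (adjusted p = 1.37e-05). Of 8 endothelial markers 7 passed the filter, and 2 of these rose and 5 did not pass with either hairpin. The list had sums of 1282 to 1332 in KD day 6 arrays, 1161 to 1331 in control day 6 arrays, 1296 to 1386 in KD day 3 arrays and 1238 to 1343 in control day 3 arrays. The endothelial receptor Kdr rose by 1.25 in KD cells (adjusted p = 3.91e-05) and 1.00 in control cells (adjusted p = 2.41e-04), and Cdh5 by 0.51 (adjusted p = 0.00535) and 0.40 (adjusted p = 0.0207).

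Of the 3 collagen-binding alpha subunits measured, 2 rose with either hairpin. Over all genes the share that rose was 7.46% in KD and 6.99% in control cells. Itga11, the fibroblast receptor for fibrillar collagen, read 8.53, 7.67 and 7.78 in KD day 6 arrays, 8.55, 8.06 and 8.01 in control day 6 arrays, 7.16, 7.14 and 6.84 in KD day 3 arrays and 7.07, 7.30 and 7.08 in control day 3 arrays. The first replicate was the highest at day 6 with either hairpin, and no day 6 array came down to a day 3 level. The difference was 0.95 ± 0.20 in KD cells (1.93-fold, adjusted p = 0.00647) and 1.06 ± 0.20 in control cells (2.09-fold, adjusted p = 0.00357). Itga1, which favours basement membrane collagen, read 7.63, 6.91 and 7.04 in KD day 6 arrays, 7.31, 6.88 and 7.05 in control day 6 arrays, 6.09, 6.24 and 6.33 in KD day 3 arrays and 5.97, 6.34 and 6.38 in control day 3 arrays. Its day 6 arrays also lay above every day 3 array, by 0.97 ± 0.17 in KD cells (adjusted p = 0.00244) and 0.85 ± 0.17 in control cells (adjusted p = 0.00569). Without KD day 6 replicate 1, the highest array, the KD difference of Itga1 remained past the threshold, as it did under all 16 alternatives. Its control call was lost without replicate 3 of all groups (0.94, limma adjusted p = 0.0548). The third collagen receptor measured, Itga2, differed by 0.03 in KD cells (adjusted p = 0.918) and −0.31 in control cells (adjusted p = 0.148).

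Itga4 had the largest fall of the 35 genes. This subunit, which binds the cell adhesion protein Vcam1 and an alternative segment of fibronectin, read 7.82, 7.97 and 8.24 in KD day 6 arrays, 7.54, 8.09 and 8.34 in control day 6 arrays, 9.41, 8.79 and 9.40 in KD day 3 arrays and 9.26, 9.22 and 9.44 in control day 3 arrays. The lowest day 3 array, KD replicate 2 at 8.79, was still above the highest day 6 array at 8.34. The difference was −1.19 ± 0.20 in KD cells, 2.28-fold lower (adjusted p = 0.00156), and −1.31 ± 0.20 in control cells, 2.49-fold lower (adjusted p = 9.25e-04), and it was called under all 16 alternatives for each hairpin. Itga9, its closest relative by ligand, differed by −0.14 in KD cells (adjusted p = 0.309) and −0.02 in control cells (adjusted p = 0.897). Vcam1 itself fell by 0.85 in KD cells (adjusted p = 3.77e-06) and by 0.78 in control cells (adjusted p = 8.56e-06).

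Of the RGD-binding alpha subunits Itga5 fell and Itga8 rose. Itga5, the classical fibronectin receptor, read 8.88, 8.64 and 8.92 in KD day 6 arrays, 9.04, 8.73 and 8.91 in control day 6 arrays, 9.29, 9.53 and 9.36 in KD day 3 arrays and 9.30, 9.69 and 9.38 in control day 3 arrays. Day 6 arrays lay below all day 3 arrays, by 0.58 in KD cells (−0.58 ± 0.12, adjusted p = 0.00470) and 0.56 in control cells (−0.56 ± 0.12, adjusted p = 0.00619). Itga8, the receptor for nephronectin (Npnt) in the developing kidney, read 7.23, 6.90 and 6.82 in KD day 6 arrays, 7.08, 7.00 and 6.87 in control day 6 arrays, 6.36, 6.70 and 6.65 in KD day 3 arrays and 6.54, 6.83 and 6.63 in control day 3 arrays. Itga8 was higher by 0.41 ± 0.12 in KD cells (adjusted p = 0.0325) and by 0.32 ± 0.12 in control cells (adjusted p = 0.0886, not past), and the difference between the 2 changes, 0.09, did not pass (adjusted p = 0.991). Its KD call was lost without KD day 3 replicate 1 (0.31) or 3 (0.45), or KD day 6 replicate 1 (0.29) or 2 (0.46). Itgav, the alpha subunit of the vitronectin receptors, differed by 0.09 (adjusted p = 0.384) and 0.02 (adjusted p = 0.870), with a 95% interval of −0.05 to 0.23 in KD cells and −0.12 to 0.16 in control cells.

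Itga2b, the platelet subunit, differed by 0.04 in KD cells (adjusted p = 0.721) and −0.05 in control cells (adjusted p = 0.678). Of 4 platelet markers measured 3 passed the filter, and Pf4 was below the 30th percentile in all 12 arrays. At day 6 the sums over all 4 were 160 to 179 in KD and 188 to 199 in control arrays. At day 3 they were 170 to 206 in KD and 160 to 201 in control arrays. Laminin-binding alpha subunits did not pass in either cell group. Itga6, which pairs with beta 1 or beta 4, had 95% intervals of −0.16 to 0.13 in KD cells and −0.22 to 0.07 in control cells around −0.01 and −0.08. Itga7, the muscle laminin receptor, differed by 0.11 (adjusted p = 0.425) and 0.19 (adjusted p = 0.150), and Itga3 by 0.22 (adjusted p = 0.348) and −0.26 (adjusted p = 0.269).

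Among the beta subunits Itgb1 and Itgb3 fell and Itgb4 rose in KD cells. Itgb1 read 11.52, 11.50 and 11.52 in KD day 6 arrays, 11.50, 11.59 and 11.57 in control day 6 arrays, 11.64, 11.73 and 11.78 in KD day 3 arrays and 11.69, 11.88 and 11.78 in control day 3 arrays. The fall was small, −0.20 ± 0.06 in KD cells (1.15-fold lower, adjusted p = 0.0437) and −0.23 ± 0.06 in control cells (1.18-fold lower, adjusted p = 0.0242), though the groups did not overlap. The KD call was lost without any 1 of KD day 6 replicate 1 (−0.21), 2 (−0.20) or 3 (−0.21) or KD day 3 replicate 2 (−0.19) or 3 (−0.17), and in the fits without a filter (−0.20), with quantile normalization repeated (−0.20) or on the 2 groups compared alone (−0.20). The control call was lost without control day 6 replicate 1 (−0.21) or 3 (−0.24), without control day 3 replicate 2 (−0.19) or 3 (−0.24), and on the 2 groups compared alone (−0.23).

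Itgb3, the beta subunit of the vitronectin and platelet fibrinogen receptors, read 6.81, 6.60 and 6.65 in KD day 6 arrays, 6.71, 6.66 and 6.54 in control day 6 arrays, 7.03, 6.99 and 6.98 in KD day 3 arrays and 6.89, 7.20 and 7.00 in control day 3 arrays. Day 6 arrays were below day 3 arrays by 0.31 in KD cells (−0.31 ± 0.08, adjusted p = 0.0234) and 0.39 in control cells (−0.39 ± 0.08, adjusted p = 0.00744). The KD call was lost without KD day 3 replicate 1 (−0.29), 2 (−0.32) or 3 (−0.32), or KD day 6 replicate 2 (−0.27) or 3 (−0.29). Itgb4, the hemidesmosome subunit that pairs with Itga6 to hold epithelia to laminin, read 9.30, 9.19 and 9.16 in KD day 6 arrays, 9.17, 8.97 and 9.14 in control day 6 arrays, 9.09, 8.48 and 8.74 in KD day 3 arrays and 8.92, 8.71 and 8.70 in control day 3 arrays. The difference was 0.45 ± 0.13 in KD cells (adjusted p = 0.0279) and 0.32 ± 0.13 in control cells (adjusted p = 0.106, or 0.0290 with the replicate block). Between these 2 changes the difference was 0.13 and did not pass (limma adjusted p = 0.991), so a rise in KD cells alone is not shown. KD day 3 arrays spread from 8.48 to 9.09, and the KD call was lost without KD day 6 replicate 1 (0.40) or 2 (0.46), or KD day 3 replicate 2 (0.30) or 3 (0.43). Itgb5, Itgb6, Itgb7 and Itgb8 did not pass for either hairpin, with differences between 0.01 for Itgb7 in KD cells and 0.18 for Itgb5 in control cells.

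Of the leukocyte subunits Itgam, the macrophage alpha M chain, fell in KD cells. It read 4.90, 5.12 and 4.97 in KD day 6 arrays, 4.99, 5.28 and 5.08 in control day 6 arrays, 5.45, 5.64 and 5.41 in KD day 3 arrays and 5.28, 5.63 and 5.40 in control day 3 arrays. Day 6 arrays were below day 3 arrays with either hairpin, with differences of −0.50 ± 0.11 in KD cells (adjusted p = 0.00598) and −0.32 ± 0.11 in control cells (adjusted p = 0.0549, or 0.00363 with the replicate block). The control difference was past the threshold without control day 3 replicate 1 (−0.40) or control day 6 replicate 2 (−0.40). The difference between the 2 changes was −0.18 and did not pass (adjusted p = 0.991). The other leukocyte subunits, Itgad, Itgae, Itgal, Itgax, Itgb2 and Itgb7, did not pass, with differences between −0.08 (Itgax in control cells) and 0.20 (Itgad in KD cells).

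Leukocyte markers were read beside Itgam. Over all genes the share that fell was 10.5% in KD and 10.6% in control cells. Of 10 leukocyte markers measured, 9 passed the filter. Among these 9, Cd68 fell with either hairpin while 8 did not pass (medians −0.19 in KD and −0.09 in control cells). At day 6 the summed intensity of all 10 was 486 to 517 in KD and 465 to 500 in control arrays. At day 3 it was 856 to 890 in KD and 745 to 812 in control arrays. The sum is of linear intensities, so the strongest markers weigh most. Cd68, a macrophage lysosomal protein, fell by 1.23 in KD cells (adjusted p = 5.39e-07) and by 1.19 in control cells (adjusted p = 9.56e-07). Ptprc (CD45), which defines leukocytes, averaged 3.97 in KD day 6 arrays, 4.13 in control day 6 arrays, 4.18 in KD day 3 arrays and 4.01 in control day 3 arrays, and reached the 30th percentile in 1 array. The part of these cells in the Itgam result was not tested.

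**Figure D3:**
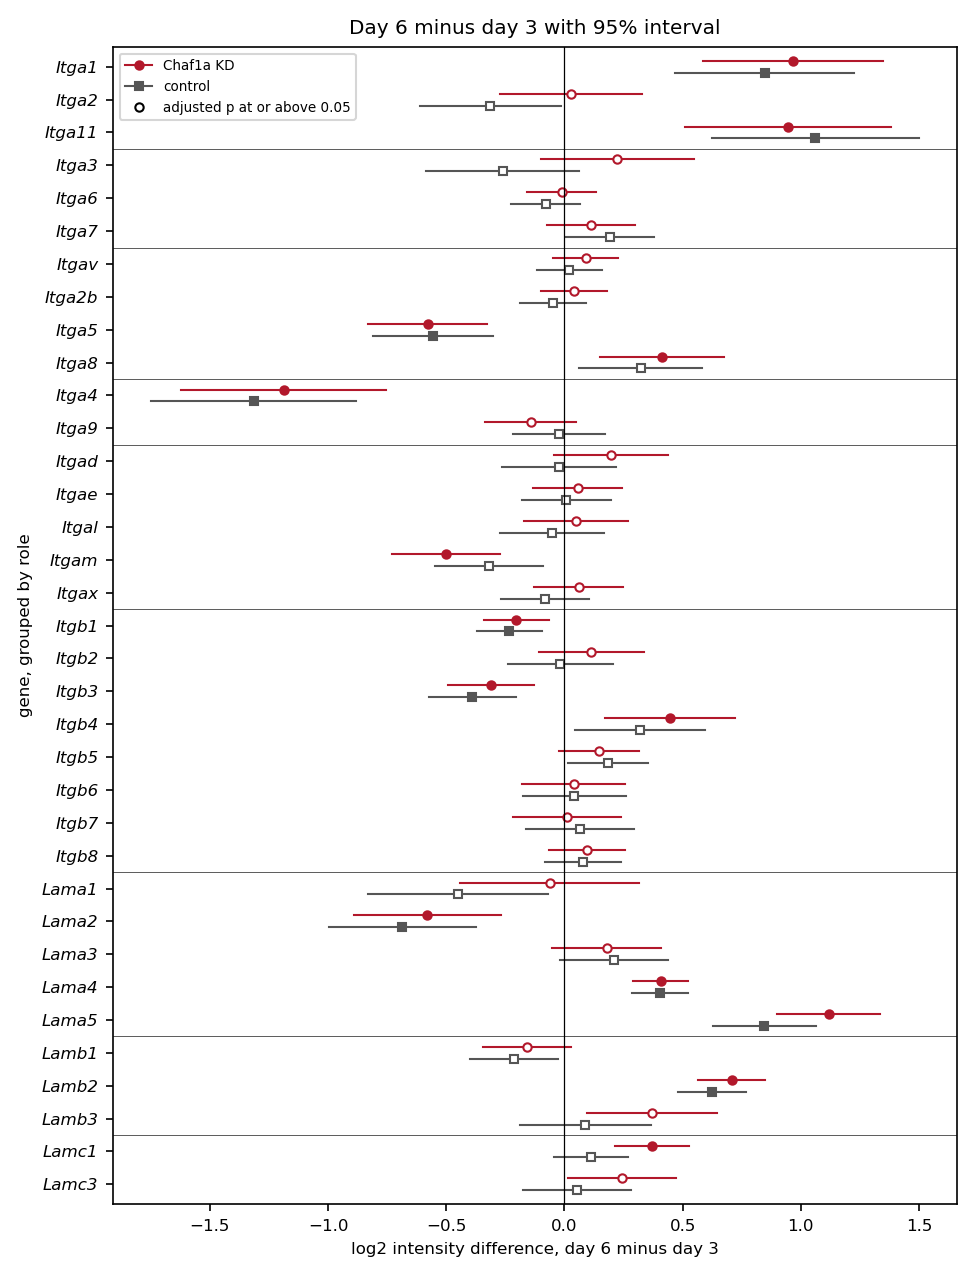
Day 6 minus day 3 in log2 intensity (x axis) for all 35 genes (y axis, grouped by role) in KD cells (circles) and control cells (squares), with 95% intervals from the limma fit and filled symbols for adjusted p under 0.05. Lama5 at 1.12 in KD cells and Itga4 at −1.31 in control cells bound the range over both hairpins, and the 2 hairpins' intervals overlap for every gene.

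Between KD and control cells no integrin or laminin gene passed the limma test at either day. At day 6 the count was 0 of 35, against 0.0392% of all genes, which were 7 genes, all higher in KD. At an unadjusted p under 0.05 there were 3 of 35, Lama5 and Itga3 higher and Itga9 lower in KD, against 4.44% of all genes. The median KD minus control difference was 0.03, with 24 genes positive and 11 negative, beside −0.01 over all genes. At day 3 the counts were 0 of 35 adjusted, against 0% of all genes, and 0 unadjusted, against 6.01% of all genes. The day 3 median was −0.05, with 9 positive and 26 negative, beside −0.01 over all genes.

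Lama5 had the smallest p at day 6, with KD minus control 0.31 ± 0.10 (95% interval 0.10 to 0.53, adjusted p = 0.948). The KD array was the higher in 3 of 3 same-number pairs, but KD replicate 3 (7.66) lay just below control replicate 1 (7.67), so the groups overlapped. Itga3, a receptor for laminins that contain the alpha 5 chain, read 7.83, 7.54 and 7.33 in KD day 6 arrays, 7.22, 7.13 and 7.06 in control day 6 arrays, 7.65, 7.25 and 7.12 in KD day 3 arrays and 7.47, 7.55 and 7.17 in control day 3 arrays. The KD day 6 arrays lay above the control day 6 arrays, by 0.43 ± 0.15 (95% interval 0.10 to 0.75, adjusted p = 0.995, or 0.260 with the replicate block). Lama5 and Itga3 thus had intervals above 0 taken gene by gene and no call over all genes.

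Lower in KD at day 6 with the smallest p were Itga9 and Itgb8. Itga9, a receptor for tenascin C and Vcam1, read 6.67, 6.76 and 6.73 in KD day 6 arrays, 7.09, 6.86 and 6.79 in control day 6 arrays, 6.87, 6.89 and 6.83 in KD day 3 arrays and 6.81, 7.11 and 6.89 in control day 3 arrays. Its difference was −0.19 (95% interval −0.39 to −0.00, adjusted p = 0.999). Itgb8, the partner of alpha v that releases active TGF-beta, read 6.84, 6.75 and 6.85 in KD day 6 arrays, 7.09, 6.88 and 6.87 in control day 6 arrays, 6.82, 6.72 and 6.62 in KD day 3 arrays and 6.82, 6.88 and 6.90 in control day 3 arrays. Its difference was −0.13 at day 6 (adjusted p = 0.999) and −0.15 at day 3 (adjusted p = 0.851). Itga3 and Lamc1 were higher, and Itga9 and Itgb8 lower, in all KD than in all control arrays at day 6, that is 2 genes each way of 35, against 5% and 5.57% of all genes. At day 3 no gene of the 35 had KD and control arrays apart in either direction, against 5.21% higher and 5.59% lower of all genes.

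Lama1 and Lamc1 are added here after their values were seen. Lama1 read 7.93, 7.22 and 7.64 in KD day 6 arrays, 7.30, 7.12 and 7.25 in control day 6 arrays, 8.01, 7.33 and 7.64 in KD day 3 arrays and 7.75, 7.57 and 7.69 in control day 3 arrays. Its KD minus control difference at day 6 was 0.37 (95% interval −0.01 to 0.75, adjusted p = 0.999), and KD replicate 2 (7.22) lay among the controls. Lamc1 differed by 0.14 (95% interval −0.02 to 0.30, adjusted p = 0.999). Of the 10 laminins 9 were positive at day 6 with a median of 0.05, and 3 were positive at day 3 with a median of −0.05. At day 3 the smallest p belonged to Itga7 (0.14, adjusted p = 0.883) and Itgam (0.06, adjusted p = 0.961) among positive differences, and to Itgb8 (−0.15, above) and Itga2 (−0.25, adjusted p = 0.859) among negative ones.

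Of the epithelial markers 1 of 10 passed between the same day 6 groups, and of the pluripotency markers 3 of 10. The share over all genes was 0.0392%. Cdh1 was higher in KD by 1.00 (limma adjusted p = 0.0130), and the epithelial sum was 1347 to 1471 in KD against 1072 to 1094 in control arrays. All 10 pluripotency markers passed the filter, with sums of 867 to 983 in KD and 697 to 723 in control arrays at day 6. Those called were Nanog (0.63, limma adjusted p = 0.00261), Sall4 (0.78, adjusted p = 0.00589) and Tdgf1 (1.77, adjusted p = 0.0130), all higher in KD. Their part in the Lama5, Itga3 and Lama1 values was not tested.

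The difference between the KD effects at day 6 and day 3 passed for 0 of 35 genes by limma, against 0% of all genes. At an unadjusted p under 0.05 there were 2, Lamc1 (0.26) and Itga3 (0.49, 95% interval 0.03 to 0.94), both with an adjusted p of 0.972, against 5.1% of all genes. The negative differences with the smallest p were Itgam (−0.18) and Itga9 (−0.12), both with an adjusted p of 0.991. The median over the 35 genes was 0.08, with 26 positive and 9 negative, and over the 10 laminins 0.15, with 9 positive, beside 0.00 over all genes. The half-width of the 95% interval for KD minus control ran from 0.12 for Lama4 to 0.44 for Itga11, which is the precision 3 arrays a group gave.

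**Figure D4:**
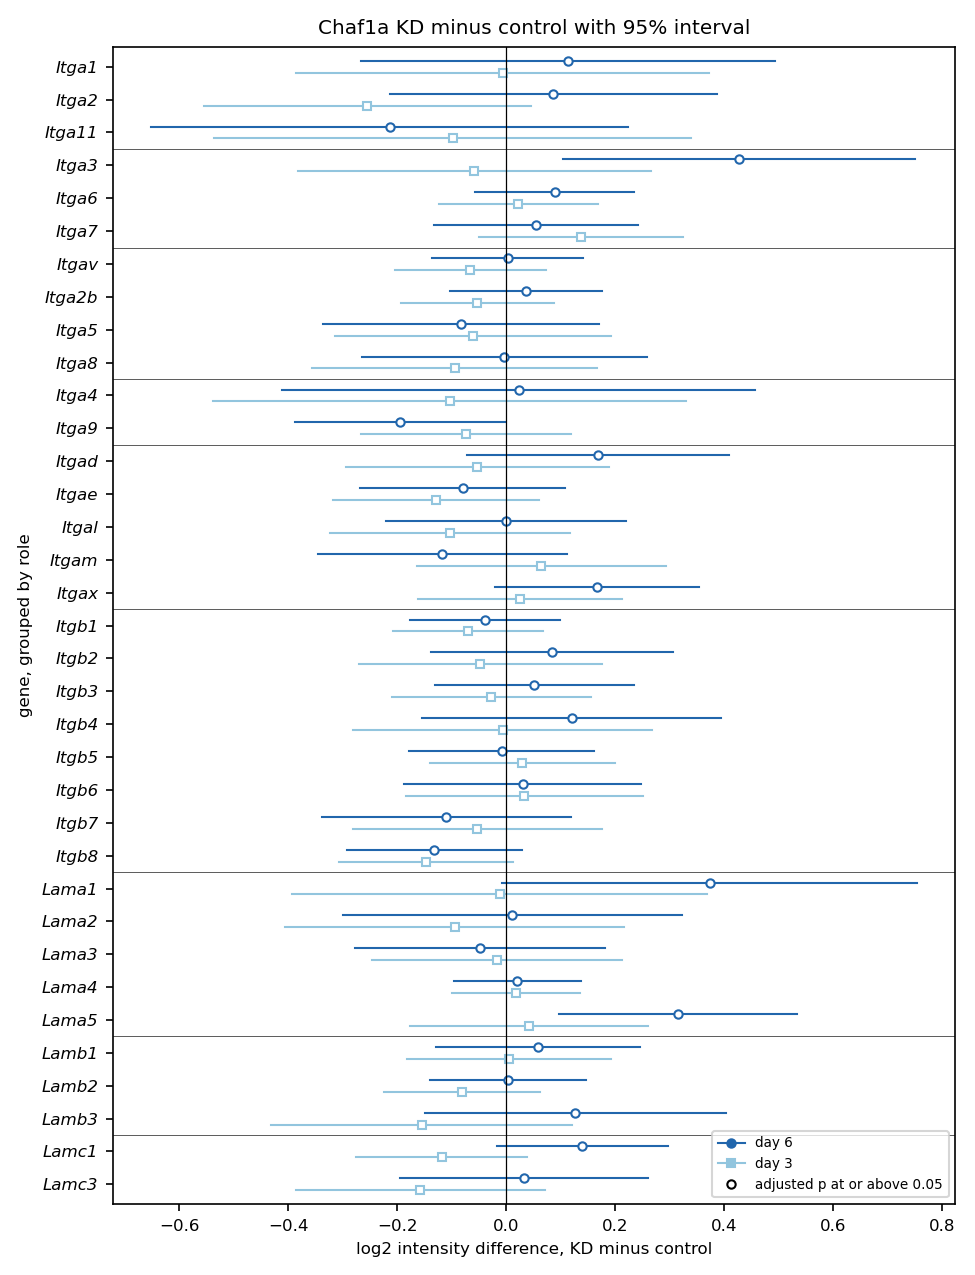
KD minus control in log2 intensity (x axis) for all 35 genes (y axis, grouped by role) at day 6 (circles) and day 3 (squares), with 95% intervals from the limma fit and open symbols for adjusted p at or above 0.05. No symbol is filled, and the day 6 intervals of Lama5 and Itga3 lie above 0.

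A further 4 lists of genes that work with integrins and laminins were read from the same fit, and none of their members was called between KD and control cells at either day or in the difference between days by limma. At an unadjusted p under 0.05 the KD minus control difference gave 0 of 21 basement membrane partners, 2 of 8 laminin receptors and hemidesmosome genes, 0 of 18 other ligands and 2 of 31 adaptors at day 6, and 2, 2, 1 and 1 at day 3, while the difference between days gave 2, 2, 0 and 0. The shares of all genes were 4.44% at day 6, 6.01% at day 3 and 5.1% for the difference between days. Of the 21 basement membrane partners, 2 rose and 2 fell in KD cells with time, and 2 rose and 3 fell in control cells, with medians of 0.06 and 0.03. That is 4 and 5 of 21, near the 17.9% and 17.6% of all genes called. The heparan sulfate proteoglycan Agrn rose by 0.47 in KD (adjusted p = 0.0232) and 0.50 in control cells (adjusted p = 0.0181), Col18a1 by 0.40 in KD cells (adjusted p = 0.0347), and the matricellular protein Smoc2 by 0.70 in control cells (adjusted p = 0.0197). The matrix protein Tinagl1 fell by 0.93 (adjusted p = 7.44e-05) and by 0.67 (adjusted p = 8.53e-04), Smoc1 fell by 0.63 (adjusted p = 0.00257) and by 0.40 (adjusted p = 0.0301) in KD and control cells, and Nid1, which links laminin to collagen IV, fell by 0.33 in control cells (adjusted p = 0.00868). The KD count of rises was 0 without KD day 3 replicate 1, KD day 6 replicate 1 or KD day 6 replicate 2, was 1 without KD day 3 replicate 3, and was 5 with the replicate block. The control count of rises was 0 without control day 6 replicate 2 and 1 without any other single control array.

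Of 8 other laminin receptors and hemidesmosome genes, 2 rose and 0 fell in KD cells, and 3 rose and 1 fell in control cells, with medians of 0.15 and 0.09, beside 7.46% and 10.5% of all genes in KD cells and 6.99% and 10.6% in control cells. Bcam, the Lutheran glycoprotein that binds the laminin alpha 5 chain, rose by 0.69 in KD (adjusted p = 8.97e-04) and 0.45 in control cells (adjusted p = 0.0117), and Dag1, the dystroglycan receptor of laminin, by 0.27 (adjusted p = 0.0122) and 0.23 (adjusted p = 0.0293). Sgce, epsilon-sarcoglycan, rose by 0.30 (adjusted p = 0.0459) and Plec, the plectin linker, fell by 0.28 (adjusted p = 0.0481) in control cells. The count of rises in KD cells was 1 without KD day 6 replicate 2. In control cells it was 1 without control day 3 replicate 1, control day 6 replicate 1 or control day 6 replicate 2, and 0 without control day 3 replicate 3, while the Plec call was lost without control day 3 replicate 2 or any single control day 6 array.

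Integrin ligands other than laminins mostly fell where they were called. Of 18 tested, 0 rose and 5 fell in KD cells, and 1 rose and 4 fell in control cells, with medians of −0.11 and 0.01. Over all genes 7.46% rose and 10.5% fell in KD cells, and 6.99% rose and 10.6% fell in control cells. Besides Vcam1 these were Npnt, the ligand of alpha 8 beta 1, which fell by 0.47 in KD cells (adjusted p = 0.0114) and by 0.63 in control cells (adjusted p = 0.00231), and the proteoglycan Cspg4, which fell by 0.48 in each (adjusted p = 0.0323 and 0.0327). Icam1 and, in KD cells, Adam15 made up the rest, and Ccn3 rose by 0.63 in control cells (adjusted p = 0.00654). The KD counts were 1 rise and 3 falls without KD day 3 replicate 2. The control count of falls was 2 without control day 3 replicate 2, control day 6 replicate 2 or control day 6 replicate 3, and that of rises was 2 without control day 6 replicate 2.

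Of 31 adaptor and focal adhesion genes tested, 2 rose and 7 fell in KD cells, and 1 rose and 6 fell in control cells, with medians of −0.04 and −0.07, against all-gene shares of 7.46% higher and 10.5% lower in KD and 6.99% higher and 10.6% lower in control cells. The falls included beta-parvin (Parvb), by 0.83 in KD cells (adjusted p = 0.00198) and by 1.00 in control cells (adjusted p = 6.50e-04), and alpha-actinin (Actn1), by 0.46 (adjusted p = 1.74e-04) and by 0.44 (adjusted p = 3.07e-04). Tgfb1i1, a paxillin relative, fell by 0.53 in KD cells (adjusted p = 0.00246), and Lpp fell by 0.32 in control cells (adjusted p = 0.0373). Tensin 3 (Tns3) rose by 0.70 in KD (adjusted p = 4.38e-04) and 0.63 in control cells (adjusted p = 9.43e-04), and Enah by 0.31 in KD cells (adjusted p = 0.0176). The KD count of rises was 1 without KD day 3 replicate 2 or KD day 6 replicate 3. The control count of falls was 2 without either replicate 2 array and 3 without either replicate 3 array.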

How the data were processed

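Per the submitters' processing notes, the authors used RMA (version not given in the sources used here) and Affymetrix Expression Console 1.3.0.187, and the deposited intensities are on a linear scale. RNA extracted as total RNA (100 ng) was amplified and labelled with biotin, per the labels' protocols, while the molecule field reads polyA RNA. The array's genome build is not given in the sources used here. From the deposited intensity table of 12 arrays and 41345 probe sets, 23521 probe sets naming 1 gene were used and log2 was taken with no other change. A gene with several probe sets was represented by the one with the highest mean. A gene was kept where at least 3 arrays had it at or above their 30th percentile (log2 4.30 to 4.38), leaving 17860 genes. The precision depended on the number of arrays and on each gene's spread between them. Pearson's r between arrays of a group was 0.994 to 0.996.

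Differences were tested with limma 3.58.1 (lmFit and eBayes, two-sided, R 4.3.3) with 1 mean for each of the 4 groups, 12 arrays in the fit, 8 residual and 4.37 prior degrees of freedom, Benjamini-Hochberg adjustment over all genes kept and a threshold of 0.05. The fit was also run on simulated arrays with known changes and independent noise. Those arrays lack the correlation between same-number arrays given below, so that run says nothing about the pairing. A gene called is one past that threshold, SE is the standard error of a log2 difference, and intervals are 95% intervals from the fit, gene by gene. Groups share replicate numbers, and the deviations from group means correlated above 0.1 in all 12 same-number pairs of compared groups (0.14 to 0.37), so the numbers were taken to pair the arrays and a fit with the number as a block was an alternative. Its value stands beside a result where it changes the call. The other alternatives were no filter, a filter at the array median, repeated quantile normalization, the mean of a gene's probe sets, a mean-variance trend, the 2 groups compared alone, and arrays left out.

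The members and all gene lists were chosen with earlier results of these data known. In each comparison the rule named all members called, up to 8 rises and 8 falls, and where none passed in a direction the 2 with the smallest p. For other lists it named up to 3 called members in each direction with the largest change. Markers of fibroblast, epithelial, pluripotent, leukocyte, endothelial, muscle, platelet, glia and keratinocyte cells were read as summed intensities. Of 3 keratinocyte markers tested, 0 were called between days, beside 17.9% of all genes in KD and 17.6% in control cells. Tables and plots were made with Python 3.11.15, pandas 2.3.3 and matplotlib 3.10.9. Protein sequences were not used here.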

Additional observations from a re-analysis of the deposited data

How the results depend on the processing

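Between KD and control cells and in the difference between days, the count of integrin and laminin genes called was 0 under every alternative run. For day 6 against day 3, the settings that kept all 12 arrays gave 8 to 9 rises and 5 to 6 falls in KD cells (8 and 6 as reported), and 5 to 6 rises and 5 to 7 falls in control cells (5 and 5 as reported). Fits on the 2 groups alone gave 6 rises and 5 falls in KD cells and 7 rises and 5 falls in control cells. With arrays left out, the KD rises ran from 4 (without replicate 3 of all groups) to 9, the KD falls from 1 (without replicate 3) to 5, with 3 without KD day 3 replicate 2, without KD day 3 replicate 3 or without replicate 2. The control rises ran from 4 to 5 and the control falls from 2 (without replicate 2, or without replicate 3) to 7. Leaving out a replicate number also leaves fewer arrays in every group. Without replicate 3 the KD calls of Itga11 (limma adjusted p = 0.0669), Itga5 (0.0550), Itgam (0.0773) and Lamc1 (0.0651) were lost. So were those of Itga8 (0.0832), Itgb1 (0.336), Itgb3 (0.191), Itgb4 (0.182) and Lama2 (0.0814). The control calls of Itga1 (0.0548), Itga5 (0.0682), Itgb1 (0.183) and Itgb3 (0.124) were lost as well. Without replicate 2 the KD calls of Itga8 (0.0800), Itgb1 (0.198), Itgb3 (0.118), Itgb4 (0.176) and Lama2 (0.1545) were lost. The control calls of Itgb1 (0.186), Itgb3 (0.0916) and Lama2 (0.106) were lost there too. Without replicate 1 the KD calls of Itga8 (0.235) and Itgb1 (0.063) and the control call of Itgb1 (0.0552) were lost. The replicate block gave 9 rises and 6 falls in KD cells and 6 rises and 7 falls in control cells, and apart from Lamb3, Itgam, Itgb4 and Lama1, given with their values above, it changed no other call among the 35 genes. In 3 cases, none of them called, the direction turned: the day 3 KD minus control difference of Itgam (0.06) was −0.0118 without control day 3 replicate 1 and −0.006 without KD day 3 replicate 2 (up to 0.1606 without control day 3 replicate 2), and the difference between days of Itga9 (−0.12) was 0.0613 without replicate 1 (down to −0.2394 without replicate 2). The cause was not tested. Fits on the 2 groups compared alone lost the KD calls of Itga8 (adjusted p = 0.0699) and Itgb4 (adjusted p = 0.0713) and gained the control calls of Itga8 (adjusted p = 0.0496) and Itgb4 (adjusted p = 0.0413). The falls in that control fit also include a gene called with neither hairpin in the reported fit, which is not identified here. The control call of Itgam was also gained with the median filter (adjusted p = 0.0433) and with quantile normalization repeated (adjusted p = 0.0471). Among the other lists, basement membrane partners had 0 rises in KD cells on the 2 groups alone. Laminin receptors and hemidesmosome genes had 1 fall in KD cells with the median filter or the trend, and 0 in control cells without a filter, with quantile normalization repeated or on the 2 groups alone. Other ligands had 1 rise in KD cells with the block and 2 falls in control cells with quantile normalization repeated. Adaptors had 2 rises in control cells with the trend, 3 falls with quantile normalization repeated and 2 on the 2 groups alone.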

Other observations

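Genes with related names outside the 35 were read from the same fit. Itgbl1, an integrin beta-like secreted protein, averaged 8.59 ± 0.39 (SD, n = 3) in KD day 6 arrays, 8.72 ± 0.38 in control day 6 arrays, 8.32 ± 0.07 in KD day 3 arrays and 8.09 ± 0.15 in control day 3 arrays. Day 6 minus day 3 was 0.63 in control cells (limma adjusted p = 0.0417) and 0.27 in KD cells (limma adjusted p = 0.385), and the difference between those changes, −0.36, did not pass (limma adjusted p = 0.991). Itgb1bp1, Itgb1bp2, Itgb2l and Itgb3bp were not called in any of the 5 comparisons.

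A second probe set of Itgav, which was not used, averaged 4.42 over the 12 arrays, close to the 30th percentile. A probe set shared by Itgb4 and a neighbouring transcript averaged 5.67 and one shared by Cerkl and Itga4 averaged 5.08. The shared Itga4 probe set averaged 5.19 in KD day 6 arrays, 4.99 in control day 6 arrays, 5.16 in KD day 3 arrays and 4.98 in control day 3 arrays. These means lie below the array medians (log2 5.30 to 5.44). The fall of more than 1 on the log2 scale in Itga4's own probe set was not seen there. A signal this low, shared with another gene, cannot tell whether Itga4 changed. The shared probe set was not tested.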
